A study of Mus musculus with 4 samples.

Results

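The expression of 10 markers of renal tubular injury, namely Havcr1, Lcn2, Vcam1, Clu, Spp1, Sox9, Krt20, Cdkn1a, Gdf15 and Krt8, was examined in kidneys of pristane-induced lupus-like mice. They were selected by name from the 54532 genes counted, and their choice was made with earlier results of these libraries known: Gdf15 in particular had been noted for its lower counts in mice lacking Zbp1. The values of the 10 genes in the contrast of genotypes are therefore given as a description. Zbp1 encodes an innate immune protein that recognises left-handed DNA and RNA, and the comparison asked what its loss does to the lupus-like kidney. All animals were female and on a C57BL/6J background, and all received 500 µL pristane, an oil used to provoke a lupus-like disease, into the peritoneum at 8 weeks of age. The WT group comprised 2 kidney libraries, and the Zbp1-KO group comprised 2 kidney libraries from Zbp1-/- mice, which carry a CRISPR-Cas9 deletion from the second to the eighth exon of the gene. Kidneys were taken 8 months after injection. WT mice were purchased, whereas the Zbp1 line was made by a company named as a separate source. Littermate controls were not described, so genotype cannot be told apart from the source of the animals. Kidneys without pristane were not analysed here, so no value below can be set against an uninjured kidney.

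Tubular injury markers are genes that are silent, low or kept to certain segments in a healthy nephron and are raised when its epithelium is damaged. Havcr1 (KIM-1) is a receptor for dying cells on the injured proximal tubule, Lcn2 (NGAL) is a secreted iron-siderophore carrier made mainly in the distal nephron, and Vcam1 marks tubular cells that fail to recover as well as activated endothelium. Clu and Spp1 encode the secreted proteins clusterin and osteopontin. Sox9 is a transcription factor of regenerating epithelium, Krt8 and Krt20 are keratins of epithelial intermediate filaments, Cdkn1a (p21) arrests the cell cycle, and Gdf15 is a secreted stress cytokine.

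Total counts ranged from 9878776 to 12921925 per library, and mitochondrially encoded genes took 49.5% to 61.5% of them, which left 4003417 to 5782924 counts for all other genes. A count of 0 allowed up to 0.221 to 0.323 CPM (counts scaled by library total and TMM factor), taken as 3 counts per library. The deleted gene, Zbp1, was counted 94 and 125 times in WT against 18 and 0 times in Zbp1-KO, so both Zbp1-KO libraries lay below both WT libraries, although 1 of them still held counts. Its log2 fold change, −3.64 ± 0.89 (SE), did not pass in the principal edgeR test (adjusted p = 0.999), so a gene that was not called there cannot be taken as unchanged. In the principal comparison 2 of 14908 genes tested passed an adjusted p under 0.05 in edgeR, or 0.0134%, both higher in Zbp1-KO. Kidney identity was evident from nephron genes, of which all 6 of the thick ascending limb, 17 of 18 of the proximal tubule and 12 of 12 of the collecting duct passed the filter on low counts. With groups of 2, the smallest p of an exact two-sided permutation test is 0.333, so no such test was used.

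Of the 10 markers, 7 passed the filter on low counts (Lcn2, Vcam1, Clu, Spp1, Cdkn1a, Gdf15 and Krt8), and Havcr1, Sox9 and Krt20 did not. In the edgeR quasi-likelihood test over all genes 0 of these 7 passed an adjusted p under 0.05, beside 0.0134% of all genes, and 1, Gdf15, passed an unadjusted p under 0.05, beside 3.88%. By other tools, edgeR's exact test (0.0939% of all genes) and likelihood ratio test (0.174%) each passed 1 of the 7, again Gdf15. DESeq2 (0.0604%) and limma-voom (0.0537%) passed 0. With every gene of at least 1 count kept in the test, all 10 markers were tested and 1, Gdf15, passed, beside 0.186%. No marker passed with a filter at a mean of 1 CPM (0.021%), a replicate block (0.0738%) or mitochondrially encoded genes left out (0.0268%). The same held with 1 library left out, beside 0% without WT 1, 0.0402% without WT 2 or without Zbp1-KO 1, and 0.101% without Zbp1-KO 2. The 2 genotypes did not overlap for 1 of the 7, which was lower in Zbp1-KO, beside 32.3% of all genes that did not overlap, 16% higher and 16.3% lower. The median log2 fold change (Zbp1-KO over WT) of the 7 was −0.087, and that of all tested genes was −0.0061. Since the contrast was known when the markers were chosen, these counts are not evidence about them.

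**Figure D1:**
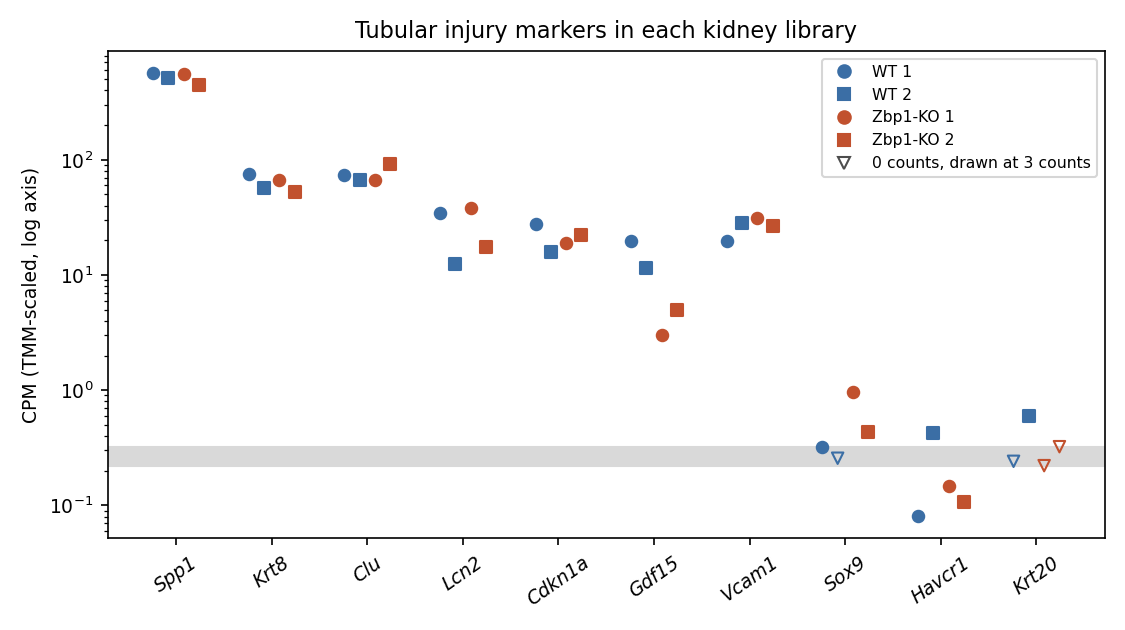
CPM (log axis) of the 10 markers in the 4 kidney libraries, WT in blue and Zbp1-KO in orange, with replicate 1 as circles and replicate 2 as squares, ordered by level per kilobase. Open triangles stand for 0 counts and are drawn at the level of 3 counts, the grey band (0.221 to 0.323 CPM). Among the 7 tested markers, Gdf15 is the one with both Zbp1-KO points (3.02 and 4.96) below both WT points (19.8 and 11.5).

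Gdf15 (ENSMUSG00000038508) lies on chromosome 8, 70629393 to 70632456, minus strand, in GENCODE M21 (GRCm38, the mm10 build). The WT kidneys gave 246 and 135 counts of Gdf15, and those of Zbp1-KO gave 41 and 46. On the CPM scale WT measured 19.8 and 11.5 and Zbp1-KO measured 3.02 and 4.96, or 15.7 ± 5.82 against 3.99 ± 1.37 CPM (SD, n = 2 each). Both Zbp1-KO kidneys were thus below both WT kidneys, and the lower WT kidney still exceeded the higher Zbp1-KO kidney. The log2 fold change was −1.99 ± 0.42 (SE), a ratio of 0.252, and 143 of the 14908 tested genes had a lower one. It remained between −2.37 (without Zbp1-KO 2) and −1.54 (without WT 1) when any 1 library was left out.

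Cdkn1a is, like Gdf15, a classical target of the tumour suppressor p53, and the pair can be compared within a library, where no scaling enters. Cdkn1a (ENSMUSG00000023067, chromosome 17, 29090976 to 29100727, plus strand) gave 344 and 185 counts in the WT kidneys, then 257 and 205 in those of Zbp1-KO, that is 27.7, 15.8, 19.0 and 22.1 CPM in that order. The Zbp1-KO kidneys lay between the 2 WT kidneys, and the log2 fold change was −0.087 ± 0.29 (SE). For every 100 Cdkn1a counts there were 71.5 Gdf15 counts in WT 1 (95% Wilson interval 60.7 to 84.2) and 73.0 in WT 2 (58.5 to 91.1). The Zbp1-KO kidneys gave 16.0 (11.5 to 22.1) and 22.4 (16.3 to 30.9) Gdf15 counts per 100 Cdkn1a counts. Between the WT kidneys each gene alone varied 1.75-fold (Cdkn1a) and 1.71-fold (Gdf15). Per 100 Krt8 counts, Gdf15 stood at 26.5 and 20.2 in WT against 4.55 (3.33 to 6.21) and 9.52 (7.05 to 12.9) in Zbp1-KO, so the 2 Zbp1-KO kidneys differed by more than their counting error. These ratios restate, free of scaling, the lower Gdf15 counts for which the gene was noted, and are no further support for them. Intervals cover counting error only, not the spread between animals.

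**Figure D2:**
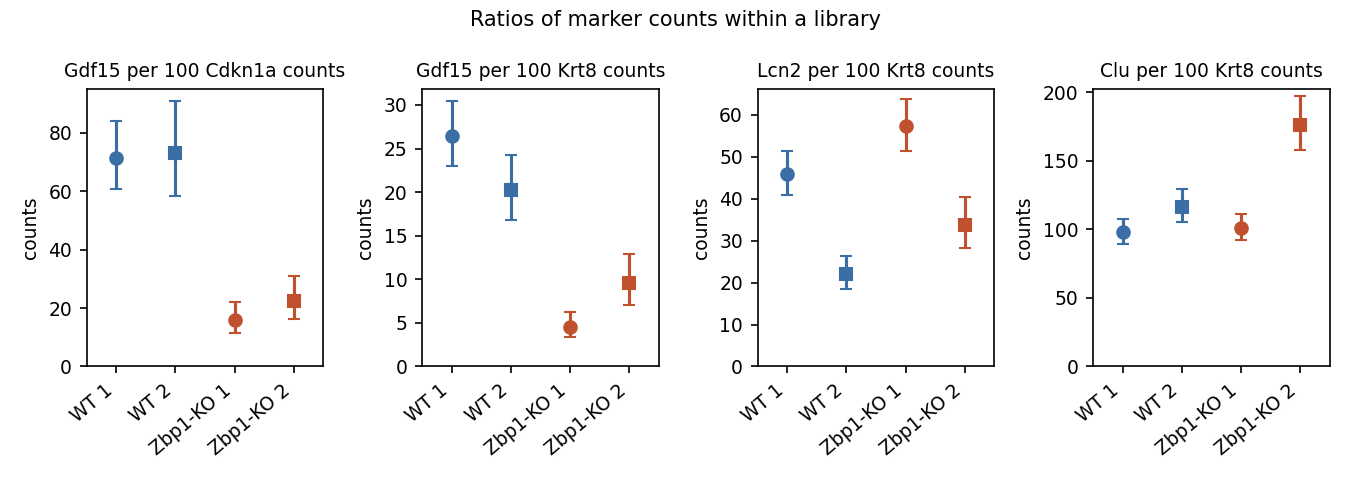
Counts of 1 marker per 100 counts of another in the same library (y axis, counts) for Gdf15 over Cdkn1a, Gdf15 over Krt8, Lcn2 over Krt8 and Clu over Krt8, with bars as 95% Wilson intervals of counting error. Gdf15 per 100 Cdkn1a is 71.5 and 73.0 in WT against 16.0 and 22.4 in Zbp1-KO, while Lcn2 per 100 Krt8 separates replicate 1 from replicate 2 in each genotype.

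The promoters of this pair are shown so that the windows of 2 classical p53 targets can be read side by side. RefSeq promoters (GRCm38.p6, 250 bases before to 50 after the start site, 5′ to 3′) were found for 7 of the 10 markers, and the one nearest the start of the GENCODE gene was taken. Gdf15 is at chr8:70632407-70632706, minus strand, and Cdkn1a at chr17:29090729-29091028, plus strand. Capitals mark p53 half-sites, the only searched motif found in either window:

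Gdf15: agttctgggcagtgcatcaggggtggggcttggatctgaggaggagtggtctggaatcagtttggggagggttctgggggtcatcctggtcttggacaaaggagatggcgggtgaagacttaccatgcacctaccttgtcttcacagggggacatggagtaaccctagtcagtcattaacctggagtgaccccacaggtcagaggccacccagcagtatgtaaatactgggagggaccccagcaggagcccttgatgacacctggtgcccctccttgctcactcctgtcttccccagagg

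Cdkn1a: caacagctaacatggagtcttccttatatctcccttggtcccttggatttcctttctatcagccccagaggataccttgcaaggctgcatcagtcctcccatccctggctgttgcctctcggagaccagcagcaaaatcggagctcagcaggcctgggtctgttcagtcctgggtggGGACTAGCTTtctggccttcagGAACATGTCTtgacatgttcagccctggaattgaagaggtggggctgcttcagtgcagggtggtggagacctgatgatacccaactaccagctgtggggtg

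The Cdkn1a window held 2 p53 half-sites, starting 73 and 51 bases before the start site, and that of Gdf15 held 0. For each gene of the pair 2 promoters were listed, and only the one shown was searched. The contrast therefore holds for these windows and not for the genes as a whole. A p53 half-site occurred in 8.36% of all 32851 promoters of this length and in 1 of the 7 marker promoters. Also searched, on both strands, were TATAAA (13.6% of all promoters, 3 of 7 markers), CCAAT (37.4%, 1 of 7), GGGCGG (35.7%, 1 of 7), the AP-1 site TGANTCA (7.81%, 0 of 7) and the CRE, TGACGTCA (1.79%, 0 of 7). The ATF4-type element TGATGNAA (3.97%), the EGR1 site GCGNGGGCG (5.55%), the NF-kB site (8.46%) and the serum response CArG box (1.63%) were likewise found in 0 of 7. These matches describe letters in a window and do not locate bound factors.

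Lcn2 differed between kidneys of the same genotype by more than between genotypes. Lcn2 (ENSMUSG00000026822, chromosome 2, 32384633 to 32388252, minus strand) gave 426 and 147 counts in the WT kidneys, then 517 and 163 in those of Zbp1-KO, that is 34.3, 12.6, 38.1 and 17.6 CPM. WT 1 and Zbp1-KO 1 were high and WT 2 and Zbp1-KO 2 were low, a 2.72-fold range in WT and 2.17-fold in Zbp1-KO. The log2 fold change was 0.26 ± 0.43 (SE), and it ran from −0.42 (without Zbp1-KO 1) to 1.15 (without WT 1). Per 100 Krt8 counts, Lcn2 stood at 45.9 and 22.01 in WT and at 57.3 and 33.7 in Zbp1-KO. Thick ascending limb genes, all 6 of them tested and none called, summed to 1481 and 1265 CPM in WT against 1739 and 1191 CPM in Zbp1-KO, with the same 2 kidneys high. Neutrophils also make Lcn2, and 4 of 8 neutrophil genes passed the filter. Their list summed to 29.4 and 6.50 CPM in WT against 10.7 and 13.7 CPM in Zbp1-KO, with Ly6g at 0 in all 4 libraries. The part of either cell type in the Lcn2 values was not tested, and fewer cells of a type cannot be told apart from less RNA per cell in whole kidney.

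Havcr1, Sox9 and Krt20, the markers that are most restricted to damaged or regenerating epithelium, were at or near the limit of detection. Havcr1 (ENSMUSG00000040405, chromosome 11, 46735080 to 46779578, plus strand) gave 1 and 5 counts in the WT kidneys, then 2 and 1 in those of Zbp1-KO, so at most 0.428 CPM. Proximal tubule genes, in whose cells Havcr1 is induced, summed to 13311 and 10022 CPM in WT against 12983 and 11770 CPM in Zbp1-KO in the same libraries. Most of each sum was Kap, with 8821 and 5564.5 CPM in WT against 9402 and 7028 CPM in Zbp1-KO. The list score weighs genes equally, as mean log2 CPM of tested genes minus their mean over 4 libraries. It was 0.11 and 0.091 in WT against −0.35 and 0.15 in Zbp1-KO, so lowest in Zbp1-KO 1. Krt20 (ENSMUSG00000035775, chromosome 11, 99428403 to 99438150, minus strand) had 7 counts in WT 2 and 0 in the other libraries, which allows up to 0.323 CPM there. Urothelial genes, which mark a renal pelvis lining that also expresses Krt20, were all tested (10 of 10) and summed to 166 and 183 CPM in WT against 211 and 139 CPM in Zbp1-KO.

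Sox9 (ENSMUSG00000000567, chromosome 11, 112782224 to 112787760, plus strand) gave 4 and 0 counts in the WT kidneys, then 13 and 4 in those of Zbp1-KO, that is 0.322, 0, 0.959 and 0.431 CPM. Both Zbp1-KO values were above both WT values, but by counts too few for the filter. A difference between genotypes in Havcr1, Krt20 or Sox9 was not detectable at this depth.

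The secreted proteins and the keratin were abundant and lay close together in the 4 kidneys. Spp1 (ENSMUSG00000029304, chromosome 5, 104435118 to 104441050, plus strand) measured 568 and 511 CPM in WT against 556 and 443 CPM in Zbp1-KO, a 1.28-fold range over all libraries. Its log2 fold change was −0.11 ± 0.19 (SE). Clu (ENSMUSG00000022037, chromosome 14, 65968483 to 65981547, plus strand) measured 73.3 and 66.5 CPM in WT against 67.2 and 91.7 CPM in Zbp1-KO, with a log2 fold change of 0.18 ± 0.20 (SE). Zbp1-KO 2 was the high library for Clu, and the other 3 lay within a narrow band. In that library there were 176 Clu counts per 100 Krt8 counts (157.6 to 197), against 98.1 to 116 in the other 3. Krt8 was lowest in the same library (52.0 CPM), so the ratio reflects both genes. Clu itself spanned 1.38-fold over all libraries.

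Krt8 (ENSMUSG00000049382, chromosome 15, 101996698 to 102004482, minus strand) measured 74.7 and 57.1 CPM in WT against 66.5 and 52.0 CPM in Zbp1-KO. The genotypes interleaved, with replicate 1 above replicate 2 in each, and the log2 fold change was −0.15 ± 0.21 (SE). Krt18, the keratin with which Krt8 pairs in filaments, measured 60.9 and 59.9 CPM in WT against 53.02 and 49.98 CPM in Zbp1-KO.

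Vcam1 (ENSMUSG00000027962, chromosome 3, 116109949 to 116129688, minus strand) measured 19.9 and 28.2 CPM in WT against 31.2 and 26.7 CPM in Zbp1-KO. WT 1 was the low library, and WT 2 lay between the Zbp1-KO kidneys. The log2 fold change was 0.27 ± 0.25 (SE), and it ran from 0.038 (without WT 1) to 0.54 (without WT 2). Endothelial genes, 8 of 8 tested, were also lowest in WT 1, with summed levels of 456 and 599 CPM in WT against 490 and 517 CPM in Zbp1-KO. Their part in the Vcam1 values was not tested. Genes that overlap the exons of Vcam1, Spp1, Cdkn1a or Krt8 had at most 4 counts in any library.

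**Figure D3:**
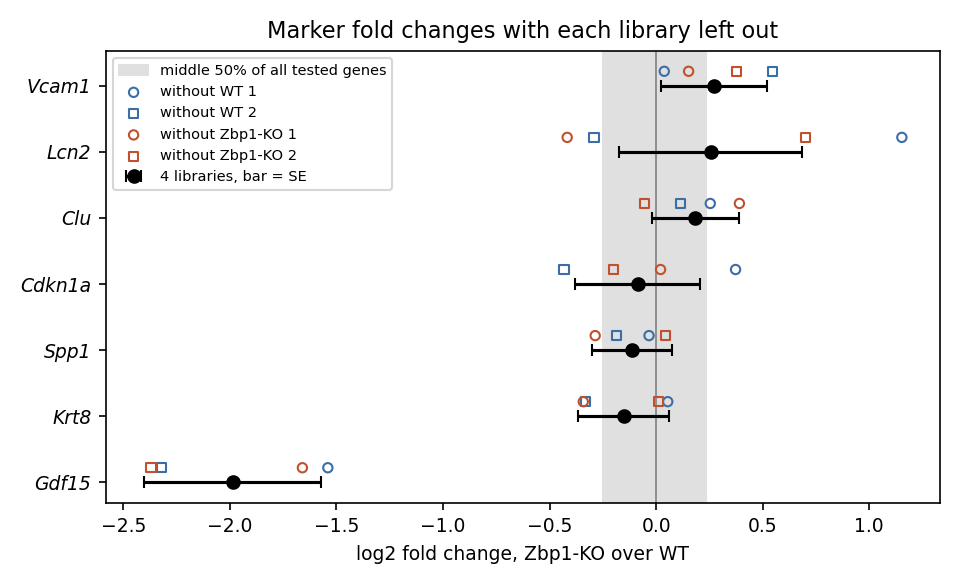
Log2 fold change (Zbp1-KO over WT) of the 7 markers that passed the filter, as filled points with SE bars, and the same value with each library left out as open symbols; grey spans the quartiles of all tested genes. Gdf15 stays between −2.37 and −1.54, whereas Lcn2, Cdkn1a, Clu, Spp1 and Krt8 have symbols on both sides of 0.

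Scaled to kilobases of merged exons, marker levels spanned a wide range. Spp1 led with 315 ± 34.5 CPM per kb (SD over 4 libraries), above 99.7% of the 13370 protein-coding genes tested. Krt8 followed with 31.97 ± 5.14 and Clu with 21.7 ± 3.41 CPM per kb, and the ranges of this pair overlapped. Lcn2 (9.77 ± 4.75), Cdkn1a (5.95 ± 1.42), Gdf15 (5.31 ± 4.09) and Vcam1 (2.99 ± 0.54) came next, each overlapping its neighbour. Gdf15 was above Cdkn1a in both WT kidneys (10.7 against 7.79, and 6.23 against 4.45 CPM per kb) and below it in both Zbp1-KO kidneys (1.63 against 5.33, and 2.68 against 6.22). The order in WT depends on the merged exon lengths, 1852 bases for Gdf15 and 3553 for Cdkn1a. In counts before this scaling Gdf15 was below Cdkn1a in WT too (246 against 344, and 135 against 185). Sox9 (0.103), Havcr1 (0.0826) and Krt20 (0.0777) came last, did not reach the lowest Vcam1 level in any library, and overlapped each other.

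The wider set of injury and repair genes of the tubule was then counted from lists written with earlier results of these data known. Of 40 such genes 38 were tested, and 0 passed an adjusted p under 0.05 in the principal edgeR test in either direction. At an unadjusted p under 0.05, 1 was higher, beside 1.91% of all genes, and 3 were lower, beside 1.97%. The list median was −0.12. Ccn1, which encodes a matricellular protein induced by growth factors and mechanical stress, came nearest to a call. It measured 48.4 and 39.4 CPM in WT against 12.6 and 14.1 CPM in Zbp1-KO, a log2 fold change of −1.72 ± 0.24 (SE; edgeR adjusted p = 0.0531).

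Ccn1 was called lower in 8 of the 10 alternatives with all 4 libraries, and its adjusted p over all alternatives ran from 7.11e-08 to 1.00 in edgeR, DESeq2 or limma. Krt19, a keratin of ductal epithelium, measured 16.7 and 17.6 CPM in WT against 25.8 and 31.3 CPM in Zbp1-KO. Sox4, a transcription factor of the same family as Sox9, measured 4.34 and 6.07 CPM in WT against 1.92 and 1.51 CPM in Zbp1-KO. Tnfrsf12a, the receptor of TWEAK, measured 10.5 and 9.66 CPM in WT against 3.76 and 6.79 CPM in Zbp1-KO. Their log2 fold changes were 0.73 ± 0.24, −1.59 ± 0.65 and −0.95 ± 0.43 (SE), in that order. None of them passed (edgeR adjusted p = 0.999 for each).

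Genes of the p53 and integrated stress programs, both of which are known to regulate Gdf15, were not called, in edgeR or under any alternative tool. The deleted gene was not called in the principal test either, and the part of either program in the Gdf15 values was not tested. Of 26 p53 target genes 24 were tested, 14 had a log2 fold change above 0 and 10 below it, and the median was 0.088. At an unadjusted p under 0.05, 2 were higher, Ercc5 and Sesn1, beside 1.91% of all genes. Ercc5 measured 23.6 and 23.1 CPM in WT against 26.2 and 46.4 CPM in Zbp1-KO. Sesn1 measured 15.9 and 15.1 CPM in WT against 23.7 and 21.98 CPM in Zbp1-KO. At that threshold 2 were lower, beside 1.97% of all genes, namely Btg2, an antiproliferative gene, and Bax, a promoter of apoptosis. Btg2 measured 42.4 and 19.4 CPM in WT against 14.4 and 17.7 CPM in Zbp1-KO. Its log2 fold change was −0.95 ± 0.34 (SE), but −0.28 without WT 1. Bax measured 34.7 and 48.1 CPM in WT against 26.2 and 30.4 CPM in Zbp1-KO. The apoptosis inducers Pmaip1 and Bbc3 had log2 fold changes of 0.79 ± 0.55 and −1.28 ± 0.98 (SE).

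The integrated stress response, a translational stress program that also drives Gdf15, had 18 tested genes of 22, with 9 above and 9 below 0 and a median of −0.036. In this list 0 genes were higher at an unadjusted p under 0.05, beside 1.91% of all genes, and 3 of the 18 were lower, beside 1.97%. These were Ppp1r15a, which ends the response by restoring translation (29.6 and 20.5 CPM in WT against 14.2 and 13.6 CPM in Zbp1-KO), Cebpb (28.1 and 22.1 against 19.4 and 9.05 CPM) and the amino acid transporter subunit Slc3a2 (61.7 and 57.8 against 43.9 and 42.1 CPM). Trib3 and Chac1 pointed the other way, with log2 fold changes of 1.94 ± 1.02 and 0.68 ± 1.04 (SE) at mean levels of 1.99 and 1.46 CPM.

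Immediate-early genes were lower in the same libraries as Gdf15. This list, which responds to stimulation and tissue handling within minutes, had 13 of 13 genes tested, all with a log2 fold change below 0. Of these, 12 did not overlap between genotypes and were lower in Zbp1-KO, beside 16.3% of all genes. An unadjusted p under 0.05 was passed by 10, beside 1.97%, but 0 passed the adjusted threshold in the principal edgeR test. The exact test (0.0939% of all genes) and the replicate block (0.0738%) each passed 3 (Dusp1, Egr1 and Nr4a1). The likelihood ratio test (0.174%) passed 4, and DESeq2 (0.0604%) and limma-voom (0.0537%) 1 each (Dusp1). With every gene of at least 1 count kept, 8 of the 13 passed, all lower, beside 0.186% of all genes in either direction. The list median was −1.16. Summed levels were 618 and 250 CPM in WT against 139 and 144 CPM in Zbp1-KO, so that WT 1 was the high library, as for Gdf15, and the part of stimulation or handling in the Gdf15 values was not tested. Without WT 1 the immediate-early median was −0.78 and the log2 fold change of Gdf15 was −1.54.

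NF-kB and acute phase targets, among which Lcn2 and Vcam1 are usually counted, had 17 tested genes of 24, with 8 above and 9 below 0 and a median of −0.027, which ran from −0.092 to 0.15 with 1 library left out. Nfkb1, a subunit of the factor itself, measured 25.4 and 31.9 CPM in WT against 39.9 and 44.1 CPM in Zbp1-KO (log2 fold change 0.55 ± 0.22, SE). Saa3, a serum amyloid induced like Lcn2 in inflammation, measured 164 and 77.1 CPM in WT against 23.7 and 72.4 CPM in Zbp1-KO (−1.34 ± 0.44). Its log2 fold change was −0.69 without WT 1, −0.74 without Zbp1-KO 1 and −2.34 without Zbp1-KO 2. The chemokine Cxcl16 had a log2 fold change of 0.34 ± 0.20 (SE). None of the 17 passed in the principal edgeR test or by another tool. At an unadjusted p under 0.05, 1 was higher (Nfkb1), beside 1.91% of all genes, and 1 was lower (Saa3), beside 1.97%. Saa3 was called lower with every gene of at least 1 count kept and without Zbp1-KO 2.

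Proliferation genes, which the cell cycle inhibitor p21 restrains, had 17 tested of 20, with 6 above and 11 below 0 and a median of −0.19. This median was −0.082 with a filter at a mean of 1 CPM, −0.31 with the replicate block, −0.37 with limma-voom, and −0.11 (without WT 1) to −0.47 (without Zbp1-KO 2) with 1 library left out. In edgeR 0 of them passed the adjusted or the unadjusted threshold, and 0 passed by another tool. The lowest fold changes under the naming rule were those of Plk1 (1.61 and 3.93 CPM in WT against 0.590 and 1.18 CPM in Zbp1-KO) and Ube2c (3.38 and 3.68 against 1.92 and 1.51 CPM), and Birc5 was slightly higher (1.05 and 0.855 against 1.33 and 1.40 CPM).

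Receptors and partners of the markers were measured from the same libraries, with 14 of 18 tested, 0 called in edgeR or by another tool and a median of −0.11. At an unadjusted p under 0.05, 1 was higher (Itga4), beside 1.91% of all genes, and 1 was lower (Sox4, also on this list), beside 1.97%. Gfral, the receptor of GDF15 and known from the brainstem, had 0 counts in all 4 libraries. Itga4, a subunit of the leukocyte integrin that binds VCAM1, measured 2.25 and 1.20 CPM in WT against 7.08 and 4.63 CPM in Zbp1-KO, a log2 fold change of 1.76 ± 0.65 (SE; edgeR adjusted p = 0.999). T cell genes, 8 of 9 tested, had a median of 0.87 (up to 1.38 without WT 1) and summed to 16.5 and 11.6 CPM in WT against 28.7 and 24.8 CPM in Zbp1-KO. Their part in Itga4 was not tested. Itgav, a subunit of integrins that bind osteopontin, had a log2 fold change of 0.13 ± 0.19 (SE), and Slc22a17, described as a receptor for NGAL, had −0.33 ± 0.21 (SE).

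**Figure D4:**
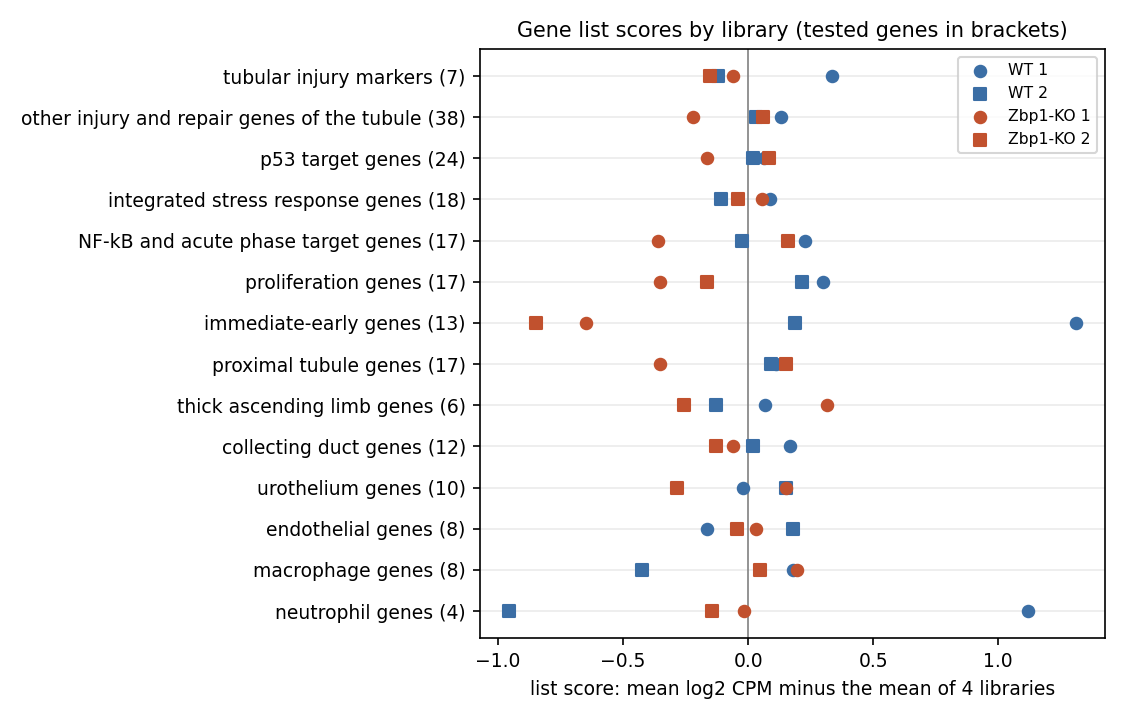
Score of each gene list in each library (x axis, mean log2 CPM of the tested genes minus their mean over 4 libraries), WT in blue and Zbp1-KO in orange, with the number of tested genes in brackets. The scores of the injury markers are 0.33 and −0.12 in WT against −0.060 and −0.15 in Zbp1-KO, and those of immediate-early genes are 1.31 and 0.19 against −0.65 and −0.85.

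Other cell type lists gave medians of −0.11 for proximal tubule, 0.11 for thick ascending limb, 0.088 for distal convoluted tubule, −0.091 for collecting duct, −0.14 for urothelium and 0.37 for podocytes. Endothelial genes had −0.016, stromal and smooth muscle genes −0.19, macrophage genes 0.20, neutrophil genes −0.50 and B and plasma cell genes −0.21. In all of these lists 0 genes were called in the principal edgeR test or by another tool. At an unadjusted p under 0.05 they held 1 higher gene, 1 of 6 for podocytes, beside 1.91% of all genes. They held 6 lower genes, beside 1.97%. Of the lower genes, 3 were among the 12 collecting duct genes and 1 among the 17 tested for proximal tubule. The distal convoluted tubule (5 tested) and urothelium (10 tested) held 1 each. With 1 library left out the medians took both signs for proximal tubule (−0.40 to 0.084), thick ascending limb (−0.21 to 0.33), distal convoluted tubule (−0.23 to 0.14), urothelium (−0.44 to 0.18), endothelial (−0.17 to 0.12), neutrophil (−1.15 to 0.64) and B and plasma cell genes (−0.99 to 0.017). Under the same settings stromal and smooth muscle genes ran from −0.50 to 0.00074, macrophage genes from 0.057 to 0.60, collecting duct genes from −0.22 to −0.057 and podocyte genes from 0.29 to 0.52. Without Zbp1-KO 2 the proximal tubule glucose transporter Slc5a2 was called lower, with Zbp1-KO 1 as the only Zbp1-KO library left. It measured 45.0 and 33.9 CPM in WT against 8.48 and 44.0 CPM in Zbp1-KO, so it was low in Zbp1-KO 1 only. Fat genes had a median of 2.20. All 7 tested were higher in Zbp1-KO at an unadjusted p under 0.05, beside 1.91% of all genes, and did not overlap between genotypes, beside 16%. Of these 1, Cfd, was called higher (edgeR adjusted p = 0.00889, and 0.224 without WT 1). Car3 was also called with the replicate block, the exact test, the likelihood ratio test, DESeq2 and limma-voom, and both Car3 and Retn were called with every gene of at least 1 count kept. The summed level of fat genes was 86.2 and 124 CPM in WT and then 271 and 246 CPM in Zbp1-KO, the libraries in which Gdf15 was low, and their part in the Gdf15 values was not tested.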

How the data were processed

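RNA-seq was performed on whole kidneys of pristane-induced WT and Zbp1-KO mice, with 2 libraries per genotype, grouped by the sample titles. The authors enriched polyadenylated RNA (TruSeq), trimmed paired reads with Trimmomatic, aligned them with hisat2 to mm10 and used featureCounts on uniquely mapped pairs. Raw, unnormalized counts per Ensembl gene were deposited. Program versions, annotation release and strand setting of the counting are not given in the sources used here, so overlapping and antisense genes are uncertain. Nothing states how the animals were assigned to libraries, and p-values measure the spread between these libraries, which may be partly technical.

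Of 54532 IDs, 54495 matched GENCODE M21 (GRCm38). Counts were tested in edgeR 4.0.16 (R 4.3.3) by the two-sided quasi-likelihood test after filterByExpr (minimum count 10, minimum total 15) and TMM, with genotype as the only term, a prior count of 0.125 and Benjamini-Hochberg adjustment over 14908 genes. The SE is the absolute log2 fold change over the square root of F. CPM per kb divides CPM by merged exon length. Ddit3 matched more than 1 ID and was left out. The members and gene lists were chosen with earlier results of these data known. Named genes were Zbp1, the 10 markers, called list genes, and up to 2 genes per direction and pathway list that changed most among those averaging at least 1 CPM with no overlap between genotypes. Tnfrsf12a, Sesn1, Bax, Slc3a2, Krt18, Gfral, Ly6g, Kap, Slc5a2, Car3, Retn, Dusp1, Egr1 and Nr4a1 were named after their values were seen. Alternatives were RLE and upper quartile factors, 2 other filters, a replicate block, edgeR's exact and likelihood ratio tests, DESeq2 1.42.0, limma-voom (limma 3.58.1), leaving out mitochondrially encoded genes and leaving out each library. The fits were also tested on simulated counts with known changes, with 14310 genes in the fit. False calls were unchanged genes that passed an adjusted p under 0.05. They numbered 10 with the quasi-likelihood test, 23 with the exact test and 30 by likelihood ratio. DESeq2 gave 17 and limma-voom 7. The simulation drew counts with the dispersions of these libraries. Changes were planted in 64 tested genes at 2-fold, 63 at 4-fold and 65 at 8-fold. The quasi-likelihood test passed 37.5% of genes changed 2-fold and 77.8% of those changed 4-fold. The kidney libraries gave 2 calls, and Gdf15, at a ratio of 0.252, had an adjusted p of 0.718 in that test. The shares therefore hold for the simulation and are not the power of the test in these libraries. Sequences are from RefSeq (GRCm38.p6).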

Additional observations from a re-analysis of the deposited data

How the results depend on the processing

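Genes called over the whole table numbered 2. The count was 41 with all genes of at least 1 count, 11 with the replicate block, 14 with the exact test, 26 by likelihood ratio, 9 with DESeq2, 8 with limma-voom and 4 without mitochondrially encoded genes. With 1 library left out, it ran from 0 (without WT 1) to 15 (without Zbp1-KO 2), where the lone library of a genotype is assumed to vary like the others. The first of these settings tested more genes of low count, and for the others the cause was not tested. The replicate numbers showed no sign of pairing (correlation of deviations of same-numbered libraries across genes 0.0154), and the block changed no call among the markers.

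Of the markers, 0 were called, Gdf15 having an adjusted p of 0.718 in the principal edgeR test. The count was 1, Gdf15, with all genes of at least 1 count (edgeR adjusted p = 0.00125), the exact test (0.0187) and by likelihood ratio (0.0117), and the cause was not tested. On simulated counts with planted changes the exact and likelihood ratio tests gave 23 and 30 false calls, against 10 with the quasi-likelihood test. They also passed more of the genes changed 2-fold, 46.9% and 50% against 37.5%. Whether the Gdf15 calls are false was not tested. Over its alternatives the adjusted p of Gdf15 ran from 0.00125 to 1.00 in edgeR, DESeq2 or limma, and its log2 fold change from −2.37 to −1.54. The count was 0 with any 1 library left out. The median log2 fold change of the 7 tested markers, −0.087, stayed between −0.098 and −0.043 with all 4 libraries and ran from −0.29 (without WT 2) to 0.054 (without WT 1).

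For 33 named genes, 462 alternative values were computed, of which 8 changed sign, all 8 with 1 library left out and in 5 markers that were not called. Lcn2 ran from −0.42 to 1.15, with −0.29 without WT 2. Clu ran from −0.056 to 0.39 and Spp1 from −0.29 to 0.043. Cdkn1a ran from −0.43 to 0.37, with 0.021 without Zbp1-KO 1. Krt8 ran from −0.34 to 0.054, with 0.012 without Zbp1-KO 2. Depth limits what can be said of Havcr1, Sox9 and Krt20, with at most 13 counts in a library.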
